A study of Homo sapiens with 17 samples.

Results

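Desmosomes are the spot-like junctions that fasten the keratin filaments of neighbouring epithelial cells together, and 10 genes of their parts are described here: the cadherins DSG2, DSG3, DSC2 and DSC3, the membrane protein PERP, the plakophilins PKP1, PKP2 and PKP3, plakoglobin (JUP) and desmoplakin (DSP). They were taken by symbol from the 34496 rows of a gene count table, and all 10 were found. All 10 also passed the low-count filter, which left 13241 genes for testing. RNA had been sequenced in 10 libraries from 3 human lines of head and neck cancer and a derivative of one of them labelled NSD1 knockout.

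The groups came in a treated and an untreated set. The treated set held 2 libraries of each of 3 groups: the parental line Cal27 given DMSO, the solvent control; Cal27 labelled NSD1KO given DMSO; and Cal27 labelled NSD1KO given EPZ-6438 (tazemetostat), which blocks the histone H3 lysine 27 methyltransferase EZH2. NSD1 is a methyltransferase for lysine 36 of the same histone. The untreated set held 1 library each of Cal27, Cal27 labelled NSD1KO, and the lines SKN3 and BICR78. The labels give neither dose nor duration, name a single NSD1KO line without saying whether it is 1 clone, and do not say whether replicates were separate cultures, so each p-value is set against the variation among these libraries alone, part or all of which may be technical. Parental cells with the inhibitor were not analysed here.

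In a desmosome the desmogleins (DSG) and desmocollins (DSC) of adjoining cells bind each other in the gap between the cells. Inside the cell their tails hold plakoglobin and the plakophilins, which in turn hold desmoplakin, and desmoplakin grips the keratin filaments. DSG2 and DSC2 are found in all tissues with desmosomes, simple epithelia and heart muscle included, whereas DSG3, DSC3 and PKP1 belong to stratified epithelia such as skin and the lining of the mouth. PERP is a tetraspan membrane protein of desmosomes in stratified epithelia.

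Total counts ran from 11745655 to 15509079 in the treated set and from 17587063 to 21738951 in the untreated set. Levels are given as counts per 1e+06 counts (CPM) after TMM scaling over all 10 libraries, and are compared within a gene only, since no transcript lengths were used. Markers of squamous epithelium were counted in all libraries, and the summed level of the 7 genes was 8030 and 7940 CPM in Cal27 with DMSO, 3830 and 3950 CPM in the labelled knockout and 2360 and 2380 CPM under EPZ-6438. KRT5 alone had means of 4010, 1930 and 873 CPM in these groups. Of the 7 genes 5 fell in the labelled knockout with DMSO, beside 19.5% of all tested genes. EPCAM rose (log2 0.11) and CDH1 did not pass the test (log2 0.01). In the untreated set the sum was 22100 CPM in Cal27, 4460 in the labelled knockout, 4030 in SKN3 and 11800 in BICR78. KRT5 and KRT14 made up most of it in Cal27, at 11400 and 6830 CPM. CDH1 (295, 625, 567 and 345 CPM in the same order) and EPCAM (185, 258, 447 and 376 CPM) were instead lowest in Cal27. Of the 7 genes, 5 were 2-fold or more lower in the labelled knockout, 3 in SKN3 and 2 in BICR78. Among all genes compared, 10.5%, 19% and 10.8% were. The sum of 8 fibroblast markers was 20.6 and 19.2 CPM in Cal27 with DMSO, 10.2 and 7.54 CPM in the labelled knockout with DMSO and 21.5 and 25.2 CPM under EPZ-6438. It was at most 55.2 CPM in any library. Of 5 tested, 3 fell in the labelled knockout, beside 19.5% of all tested genes, and 4 rose with EPZ-6438, beside 25.6%. In the treated set the sum of 7 immune markers was nearly all CD68, a lysosomal protein of macrophages, at 51.7 and 50.3 CPM in Cal27 with DMSO and 96.9 and 99.6 CPM in the labelled knockout, while PTPRC, CD3E, TYROBP and LST1 were too low to be tested and CSF1R did not pass the test (log2 -0.94 ± 0.40, SE; adjusted p = 0.080). Of 4 endothelial markers, CDH5 stood at 2.87 CPM in untreated Cal27 and 86.9 CPM in the untreated labelled knockout. VWF stood at 2.68 and 0.137 CPM, PECAM1 at 0 and 0.321 CPM, and KDR at 0 in both. With DMSO, CDH5 was higher in the labelled knockout than in Cal27 (log2 0.49 ± 0.10, SE). VWF and PECAM1 were lower (log2 -2.59 ± 0.62 and -1.68 ± 0.62, SE), from means of 1.4 and 0.739 CPM in Cal27. With EPZ-6438 PECAM1 rose (log2 3.39 ± 0.50, SE), while CDH5 and VWF did not pass the test. The sum of 4 melanocyte markers was at most 4.44 CPM. The part of these markers in the results below was not tested. NSD1, the gene the label names, stood at 113 and 114 CPM in the DMSO libraries of Cal27, at 165 and 163 CPM in those of the labelled knockout and at 161 and 150 CPM under EPZ-6438. In the untreated set it stood at 150 CPM in Cal27, 205 CPM in the labelled knockout and 80.2 CPM in SKN3, and at 0.464 CPM (9 counts) in BICR78. NSD1 mRNA was thus not lower in the libraries labelled knockout; gene counts do not show whether a transcript is edited, so every direction below is that of the label.

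The sequences around the start sites of 3 members are shown because their genes moved most differently: PKP1 showed the largest change of all members, and DSG3 and DSG2 are neighbours on chromosome 18 that changed in opposite directions. RefSeq (GRCh38.p14, the assembly of the hg38 build named for the counts) gave 10 promoter windows of 300 bases, from 250 before to 50 after a start site, for 8 of the 10 members; PKP2 and PKP3 had none in the table. Sequences read 5′ to 3′ on the gene's strand, with CG dinucleotides in capitals. The PKP1 window is chr1:201283256-201283555 on the plus strand, the DSG3 window chr18:31447491-31447790 on the plus strand and the DSG2 window chr18:31497927-31498226 on the plus strand.
PKP1: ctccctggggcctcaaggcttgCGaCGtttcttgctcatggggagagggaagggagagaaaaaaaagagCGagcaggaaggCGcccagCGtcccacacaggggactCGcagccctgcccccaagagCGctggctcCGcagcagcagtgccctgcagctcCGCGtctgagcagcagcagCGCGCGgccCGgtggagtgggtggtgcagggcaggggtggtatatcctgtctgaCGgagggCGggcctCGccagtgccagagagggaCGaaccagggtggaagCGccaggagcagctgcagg
DSG3: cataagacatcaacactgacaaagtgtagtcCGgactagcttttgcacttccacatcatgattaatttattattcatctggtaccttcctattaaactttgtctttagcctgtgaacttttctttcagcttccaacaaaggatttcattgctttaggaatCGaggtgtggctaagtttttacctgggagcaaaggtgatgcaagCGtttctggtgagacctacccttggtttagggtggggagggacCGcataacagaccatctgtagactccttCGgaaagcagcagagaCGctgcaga
DSG2: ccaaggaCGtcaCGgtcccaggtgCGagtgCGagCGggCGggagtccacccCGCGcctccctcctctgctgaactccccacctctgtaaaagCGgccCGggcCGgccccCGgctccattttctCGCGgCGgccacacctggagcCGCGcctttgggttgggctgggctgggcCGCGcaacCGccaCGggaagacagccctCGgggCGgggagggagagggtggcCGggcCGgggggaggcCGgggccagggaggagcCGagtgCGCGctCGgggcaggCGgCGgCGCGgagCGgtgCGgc

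The PKP1 window held 19 CG dinucleotides, that of DSG3 6 and that of DSG2 36, beside a median of 14 over 35116 RefSeq promoter windows (quartiles 4 and 28). PERP with 43 CG and DSP with 37 fell in the labelled knockout with DMSO, while DSG2 with 36 rose. The DSC3 window held 25, those of JUP 23 and 19 and those of DSC2 15 and 22. A part of the number of CG in the changes was not tested. The windows were searched on both strands for short motifs. The AP-1 letters tgantca lay 101 bases before the PERP start site on chromosome 6, printed here with 5 bases on each side and the motif in capitals: cgctcTGAGTCAccgga. These letters occur in 7.71% of all windows. The grainyhead letters aaccngtt (1.73% of windows) and the TEAD letters ggaatg (14.0%) were not in the members' windows.

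**Figure D1:**
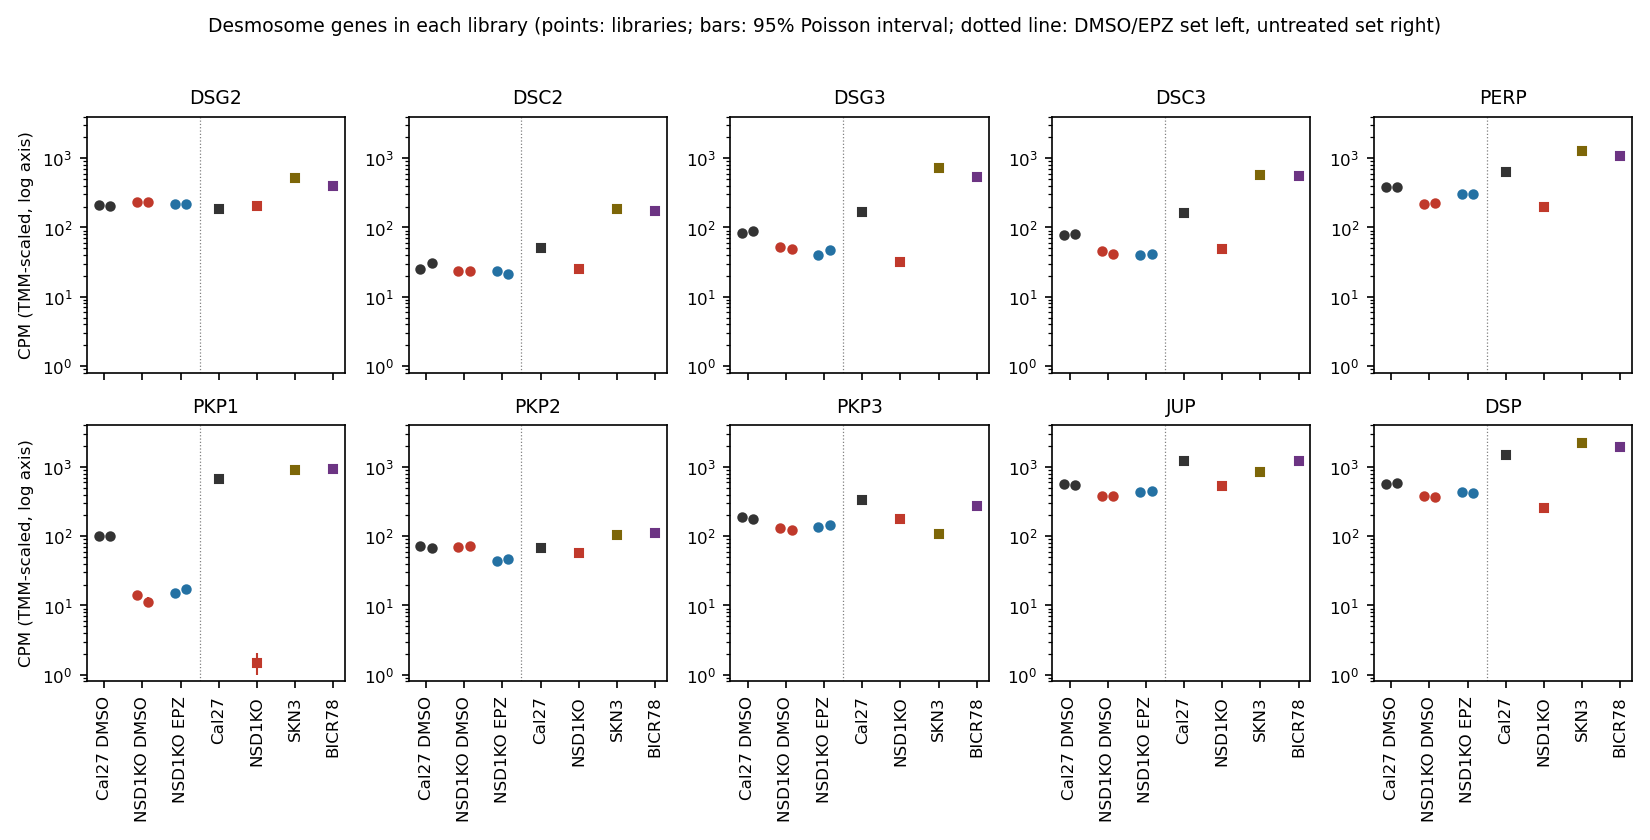
Level of each desmosome gene in each of the 10 libraries, as TMM-scaled CPM on a log axis; each point is 1 library, bars are 95% Poisson intervals (mostly smaller than the points), and the dotted line separates the treated set (left) from the untreated set (right). PKP1 runs from 1.47 CPM in the untreated labelled knockout to 952 CPM in BICR78, while DSG2 stays between 184 and 513 CPM.

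With DMSO, most desmosome genes were lower in the labelled knockout than in Cal27, PKP1 by far the most. Of the 10 members 7 fell and 1 rose (edgeR, quasi-likelihood test, adjusted p below 0.05), while 19.5% of all tested genes fell and 16.4% rose. The median log2 fold change of the members was -0.59, beside -0.01 for all tested genes. Without TMM, on library size alone, the split over all genes went from 2169 higher and 2580 lower to 2978 and 2088, while the members kept their 1 and 7. In these bulk samples fewer cells expressing a gene and less RNA per cell cannot be told apart.

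Among the plakophilins, PKP1, which clusters desmoplakin at the membrane in stratified epithelia, stood at 102 CPM in both Cal27 libraries with DMSO and at 14.1 and 11.4 CPM in the labelled knockout. The groups did not overlap, and the log2 fold change was -3.01 ± 0.08 (SE; adjusted p = 2.1e-14), an 8.05-fold lower level. PKP3, the plakophilin present in most epithelia, stood at 190 and 177 CPM in Cal27 and at 131 and 125 CPM in the labelled knockout, a log2 fold change of -0.53 ± 0.05 (SE; adjusted p = 1e-07). PKP2, the plakophilin shared with heart muscle, did not pass the test: its libraries overlapped, at 71.8 and 67.9 CPM against 70.7 and 72.6 CPM (log2 0.03 ± 0.05, SE; adjusted p = 0.69). The plakophilins thus ranged from an 8.05-fold fall to no detected change.

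The cadherins of stratified epithelium fell, and those of all desmosome-bearing tissues were not called lower. DSG3, the antigen of the blistering disease pemphigus vulgaris, went from 82.0 and 89.2 CPM in Cal27 to 52.8 and 48.5 CPM in the labelled knockout (log2 -0.76 ± 0.07, SE; adjusted p = 1.5e-07). DSC3 went from 79.1 and 79.4 CPM to 46.4 and 41.1 CPM (log2 -0.87 ± 0.06, SE; adjusted p = 8.9e-09). In both genes all libraries of the labelled knockout lay below those of Cal27. DSG2, in contrast, rose slightly, from 208 and 203 CPM to 235 and 234 CPM (log2 0.18 ± 0.03, SE; adjusted p = 0.00028), and its groups did not overlap either. DSC2 lay at the threshold, at 25.3 and 30.6 CPM in Cal27 and 23.3 and 23.6 CPM in the labelled knockout (log2 -0.26 ± 0.10, SE; adjusted p = 0.051). DSC2 was called lower under several alternatives, with an adjusted p of 0.029 with a robust spread estimate and 0.012 without replicate 1 of Cal27 with DMSO.

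DSP and JUP, which link the cadherins to keratin, and PERP fell as well. DSP, which anchors the filaments, went from 572 and 579 CPM to 383 and 369 CPM (log2 -0.62 ± 0.03, SE; adjusted p = 2.8e-11). JUP, which also serves in adherens junctions and is a relative of beta-catenin, went from 563 and 550 CPM to 382 and 381 CPM (log2 -0.55 ± 0.03, SE; adjusted p = 9.8e-11). PERP stood at 383 CPM in both Cal27 libraries and at 215 and 225 CPM in the labelled knockout (log2 -0.80 ± 0.03, SE; adjusted p = 2.9e-12). The groups did not overlap in these 3 genes. When tested against a log2 fold change of 0.5 in place of 0, PKP1, DSG3, DSC3, DSP and PERP were still called lower, while PKP3, JUP and DSG2 were not.

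**Figure D2:**
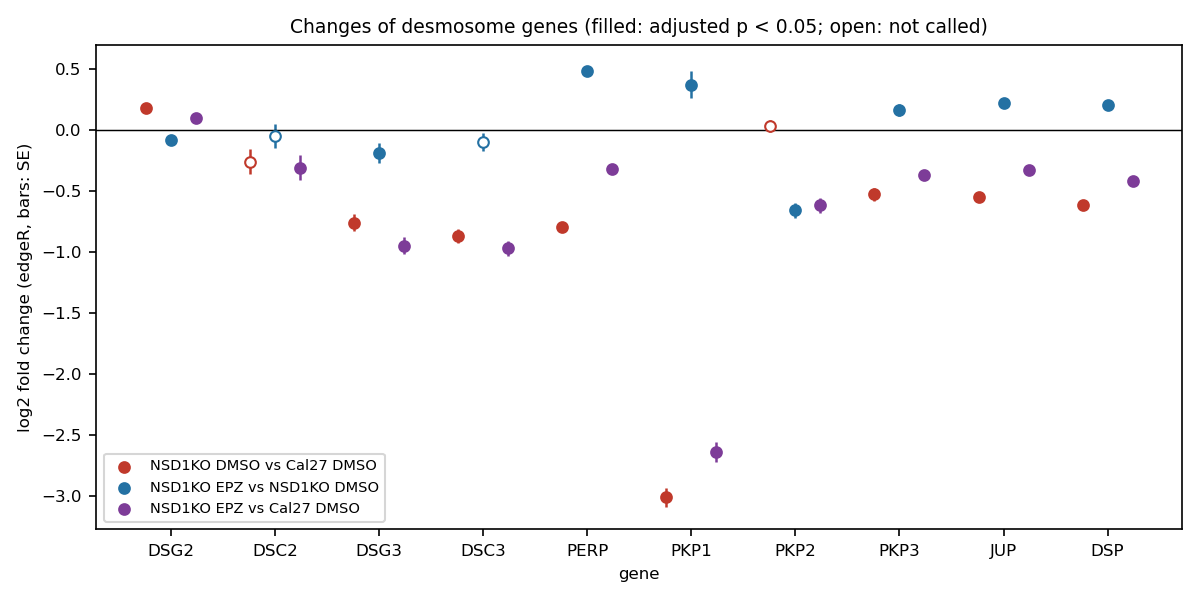
Log2 fold change of each desmosome gene in the 3 comparisons of the treated set (points, edgeR; bars are SE); filled points passed the test and open points did not. PKP1 stands apart at -3.01 and -2.64 against Cal27, and the points of the inhibitor comparison lie between -0.66 and 0.48.

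In the labelled knockout given EPZ-6438, PERP, DSP, JUP, PKP1 and PKP3 were higher than with DMSO, none of them reaching the level of Cal27, while PKP2 was lower. Of the 10 members 5 rose and 3 fell against the labelled knockout with DMSO, beside 25.6% and 23.9% of all tested genes, and the members' median log2 fold change was 0.05 (0.00 for all tested genes). This comparison and the preceding one share the labelled knockout libraries with DMSO.

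PERP showed the largest rise by log2 fold change, from 215 and 225 CPM with DMSO to 307 and 306 CPM with EPZ-6438 (log2 0.48 ± 0.03, SE; adjusted p = 1.7e-09). DSP rose from 383 and 369 CPM to 436 and 425 CPM (log2 0.20 ± 0.03, SE; adjusted p = 2.3e-05) and JUP from 382 and 381 CPM to 435 and 448 CPM (log2 0.22 ± 0.03, SE; adjusted p = 8.5e-06). In these 3 genes both treated libraries lay above both DMSO libraries of the labelled knockout and below both Cal27 libraries. PKP1 rose from 14.1 and 11.4 CPM to 15.1 and 17.3 CPM (log2 0.37 ± 0.11, SE; adjusted p = 0.010) and PKP3 from 131 and 125 CPM to 138 and 147 CPM (log2 0.16 ± 0.05, SE; adjusted p = 0.0088). The calls of PKP1 and PKP3 each rested on single libraries: without the second DMSO replicate of the labelled knockout (replicate 2) the adjusted p was 0.17 and 0.12, and without replicate 2 with EPZ-6438 it was 0.16 and 0.14. None of the 5 increases was called against a log2 fold change of 0.5.

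PKP2 went the other way. It fell from 70.7 and 72.6 CPM to 44.2 and 46.3 CPM with EPZ-6438 (log2 -0.66 ± 0.06, SE; adjusted p = 5.8e-08), and this call held under all alternatives run. The cadherins showed no rise: DSG3 stood at 40.7 and 47.2 CPM (log2 -0.19 ± 0.08, SE; adjusted p = 0.048) and DSG2 at 222 and 220 CPM (log2 -0.08 ± 0.03, SE; adjusted p = 0.043), both called lower just inside the threshold. DSG3 lost that call without replicate 1 of the labelled knockout with DMSO (adjusted p = 0.28) or without replicate 1 with EPZ-6438 (adjusted p = 0.35), and DSG2 lost it when either replicate of either of these groups was left out (adjusted p from 0.069 to 0.13). DSC3 at 39.4 and 41.4 CPM and DSC2 at 23.9 and 21.3 CPM did not pass the test (adjusted p = 0.23 and 0.69). The 5 increases called were thus in PERP, DSP, JUP, PKP1 and PKP3, and the decreases in PKP2, also a plaque gene, and the desmogleins. The calls of PKP1, PKP3 and the desmogleins depended on single libraries. DESeq2 did not call the desmogleins (adjusted p = 0.12 for DSG2 and 0.094 for DSG3).

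The treated labelled knockout, compared with the DMSO libraries of Cal27, was lower in 9 members and higher in 1, beside 25.9% lower and 26.1% higher among all tested genes. The median log2 fold change of the members was -0.39. PKP1 remained furthest from Cal27, at 15.1 and 17.3 CPM against 102 CPM in both parental libraries (log2 -2.64 ± 0.08, SE; adjusted p = 2.2e-14). DSG3 and DSC3 were lower by a log2 fold change of -0.95 ± 0.07 and -0.97 ± 0.06 (SE), PKP2 by -0.62 ± 0.06, and PERP, JUP, PKP3 and DSP by between -0.32 and -0.42. The higher member was DSG2 (log2 0.10 ± 0.03, SE; adjusted p = 0.016), whose call was lost without replicate 2 of Cal27 with DMSO (adjusted p = 0.12). DSC2 was called lower (log2 -0.31 ± 0.10, SE; adjusted p = 0.014) and lost the call also without it (adjusted p = 0.24), without replicate 2 with EPZ-6438 (adjusted p = 0.14) or in DESeq2 (adjusted p = 0.065).

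The balance of the cadherin isoforms was followed as a ratio of read counts within each library, in which scaling cancels; the ratio is not corrected for length. DSC3 to DSC2 was 3.13 and 2.59 in Cal27 with DMSO, 1.99 and 1.74 in the DMSO libraries of the labelled knockout and 1.65 and 1.94 under EPZ-6438. DSG3 to DSG2 was 0.394 and 0.438 in Cal27, 0.225 and 0.207 in the labelled knockout and 0.184 and 0.214 with EPZ-6438. Both ratios were lower in all libraries of the labelled knockout than in those of Cal27, and the libraries with and without EPZ-6438 overlapped. The mean log2 ratio was lower in the labelled knockout with DMSO by 1.53-fold for the desmocollins and 1.93-fold for the desmogleins, each with the smallest p that an exact two-sided permutation test of 2 against 2 libraries allows (p = 0.333), so this test cannot reach 0.05. With EPZ-6438 the log2 ratios differed from the DMSO libraries by -0.06 and -0.12 (exact permutation test, two-sided, p = 0.667 for each).

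**Figure D3:**
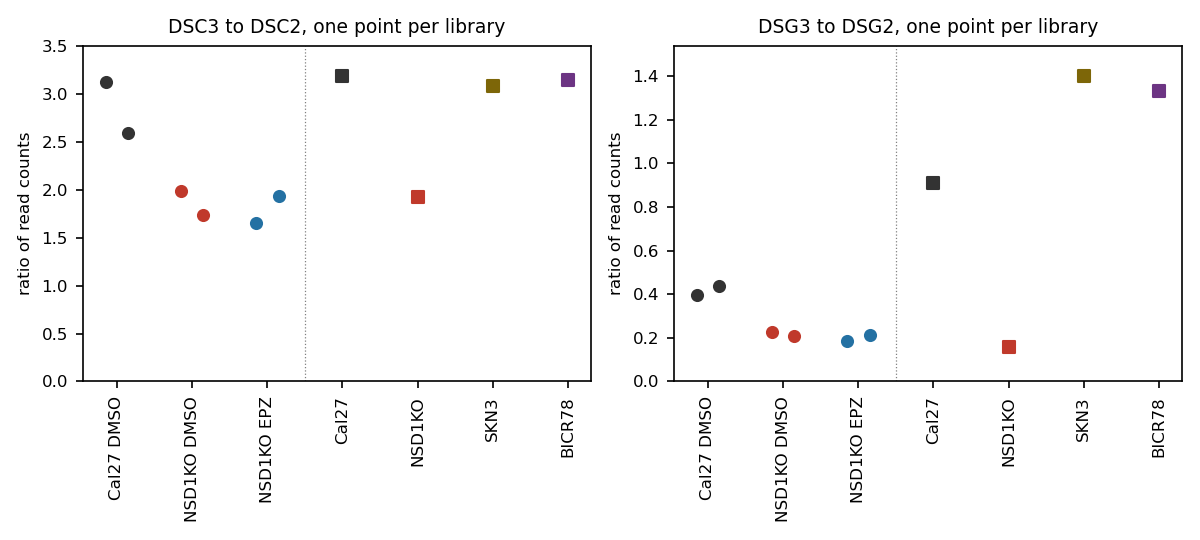
Ratio of read counts of DSC3 to DSC2 (left) and DSG3 to DSG2 (right), 1 point per library, treated set left of the dotted line and untreated set right of it. The labelled knockout libraries lie between 1.65 and 1.99 for the desmocollins, below all others, and between 0.156 and 0.225 for the desmogleins.

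In the untreated pair, with 1 library per group and hence no test, most members were again lower in the labelled knockout, by 2-fold or more for 6. No member was 2-fold higher, and of 15460 genes 10.5% were lower and 6.75% higher by that much. Differences are between log2 CPM values to which a prior count of 2 was added. PKP1 stood at 672 CPM (95% Poisson interval 661 to 683) in untreated Cal27 and at 1.47 CPM (1.0 to 2.07; 32 counts) in the untreated labelled knockout, a log2 difference of -8.72. PKP1 and the genes with a still lower difference made up 0.0129% of the genes compared. DSP went from 1510 to 253 CPM (log2 -2.58), DSG3 from 167 to 31.8 CPM (log2 -2.39), DSC3 from 160 to 48.9 CPM (log2 -1.71), PERP from 631 to 195 CPM (log2 -1.7) and JUP from 1220 to 529 CPM (log2 -1.2). DSC2 and PKP3 were just under 2-fold lower, at log2 differences of -0.99 and -0.92. PKP2 at 66.7 and 57.2 CPM and DSG2 at 184 and 204 CPM differed least, as they did with DMSO. DSC3 to DSC2 was 3.19 in untreated Cal27 and 1.93 in the untreated labelled knockout, and DSG3 to DSG2 was 0.910 and 0.156.

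The size of the knockout difference was compared between the sets in 1 edgeR fit of the 4 DMSO and 2 untreated libraries of Cal27 and its labelled knockout, a test added after the values had been seen, in which the single untreated libraries are assumed to vary like the DMSO pairs. Their own spread was not measured, so no error or p is given for the difference. Under that assumption the log2 fold change was called lower in the untreated set for 9 of the 10 members, beside 16.1% of genes called in that direction and 14.7% in the other. For PKP1 the log2 fold change was -3.00 with DMSO and -8.83 untreated (difference -5.83), and for DSP -0.61 and -2.58 (difference -1.97). DSG2 was the exception, at 0.19 and 0.15. When the untreated pair was joined to the DMSO libraries with library set as a term, 4 members were called lower in place of 7, since PKP1 (adjusted p = 0.053), DSG3 (0.055) and DSP (0.095) then missed the threshold.

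**Figure D4:**
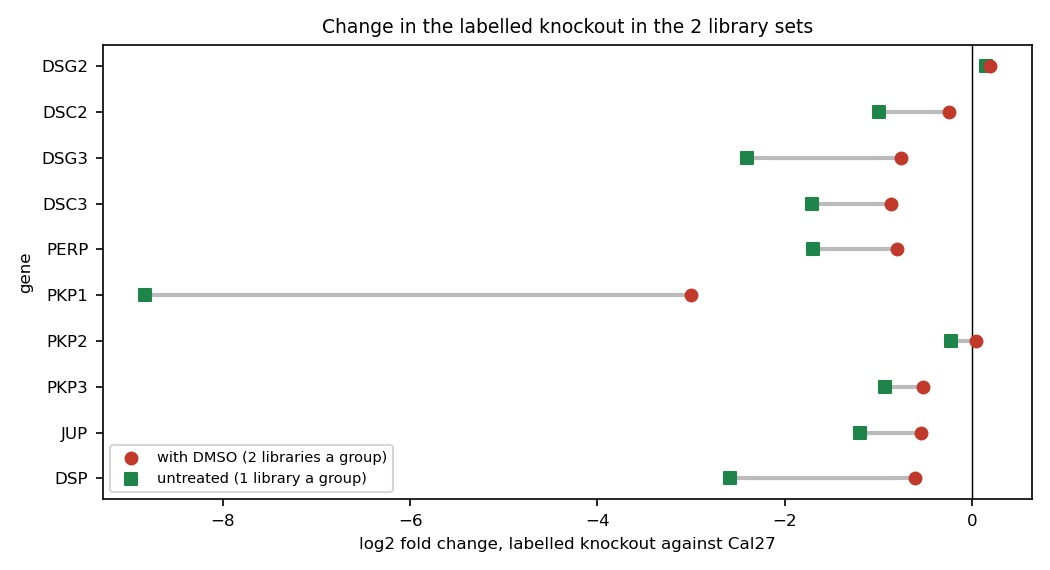
Log2 fold change of the labelled knockout against Cal27 for each desmosome gene with DMSO (circles, 2 libraries a group) and untreated (squares, 1 library a group, no error), from 1 fit of both sets. The squares lie left of the circles for all members, by 5.83 for PKP1 and by 0.05 for DSG2.

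Parental levels also differed between the sets. PKP1 was 6.58-fold higher in untreated Cal27 than in Cal27 with DMSO but 8.06-fold lower in the untreated labelled knockout than in the labelled knockout with DMSO. DSP was 2.62-fold higher, JUP 2.18-fold, DSC3 2.02-fold and DSG3 1.95-fold higher in untreated Cal27, whereas PKP2 and DSG2 were 1.05-fold and 1.12-fold lower. A 2-fold or larger excess in untreated Cal27 was found for 7.32% of genes and the reverse for 3.72%. Some genes outside the members differed far more: COL17A1, a hemidesmosome collagen, was 38.4-fold and ISG15 68.4-fold higher in untreated Cal27, and both were also 16.7-fold and 63-fold higher in the untreated labelled knockout. Treatment and library set cannot be told apart here.

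Among the untreated lines, SKN3 and BICR78 had more RNA of the cadherins and PERP than Cal27. In SKN3, 5 members were 2-fold or more above untreated Cal27 and 1 was below, beside 22.7% and 19.0% of all genes; in BICR78, 4 were above and none below, beside 18.6% and 10.8%. These comparisons rest on 1 library per line. DSG3 was at 719 CPM in SKN3 and 536 CPM in BICR78 against 167 CPM in Cal27, DSC3 at 568 and 552 against 160 CPM, DSC2 at 184 and 175 against 50.2 CPM, and DSG2 at 513 and 403 against 184 CPM. PERP was at 1290 and 1090 against 631 CPM. Most plaque genes were less than 2-fold from Cal27, with PKP1 at 897 and 952 against 672 CPM, DSP at 2240 and 1930 against 1510 CPM, JUP at 851 and 1230 against 1220 CPM and PKP2 at 104 and 110 against 66.7 CPM. PKP3 was the member below Cal27 in SKN3, at 109 against 333 CPM, and stood at 271 CPM in BICR78. The median log2 difference of the members from untreated Cal27 was 0.84 in SKN3 and 0.76 in BICR78, beside 0 and 0.01 for all genes compared. BICR78 was the line with 9 counts of NSD1, and a part of NSD1 in these differences was not tested.

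The cadherin genes lie side by side on chromosome 18, in the order DSC3, DSC2, DSC1, DSG1, DSG4, DSG3 and DSG2, within 560 kb (GRCh38.p14, chr18:30989365-31549008). DSG3 and DSG2 are 19.5 kb apart, and DSC3 and DSC2 16.1 kb. The middle of the cluster holds DSC1, DSG1 and DSG4, cadherins of the upper epidermis and of hair, which were too low to be tested in the treated set: DSG1 and DSG4 had 0 counts in all 6 libraries there, which allows a level of up to 0.254 CPM (3 counts in the smallest library), and DSC1 had at most 2. In the untreated set DSC1 stood at 0.479 CPM in Cal27, 107 CPM in SKN3 and 27.7 CPM in BICR78, and DSG1 at 0.527, 8.72 and 35.8 CPM. DSG4 had 3 counts in SKN3 and 18 in BICR78, where it was at least 6.46-fold above the level of 3 counts in Cal27. With DSG4 left aside, all 6 genes of the cluster were 2-fold or more higher in both lines than in untreated Cal27, with log2 differences from 1.48 to 7.47 in SKN3 and from 1.13 to 5.79 in BICR78. Of the 197 other genes of chromosome 18 compared, 34.0% were 2-fold or more higher in SKN3 and 34.0% in BICR78, with medians of 0.53 and 0.65, beside 22.4% and 18.2% and medians of 0.00 on other chromosomes. Of the flanking genes, B4GALT6, a glycosyltransferase, had log2 differences of 2.74 and 1.19 in the same lines and did not pass the test in the knockout comparison with DMSO (log2 0.40 ± 0.20, SE; adjusted p = 0.14), although it rose with EPZ-6438 (log2 0.50 ± 0.19, SE; adjusted p = 0.035). TTR had at most 1 count in any library. Within the cluster the labelled knockout with DMSO thus combined a fall of DSG3 and DSC3 with a small rise of DSG2, so the cluster did not change as a block there. In the untreated pair, 1 library per group, 4 of the 6 genes were 2-fold or more lower in the labelled knockout, beside 10.5% of all genes. Of these, DSC1 and DSG1 had only 10 and 11 counts in Cal27. DSC2 differed by -0.99 and DSG2 by 0.15 (log2).

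The partners of the desmosome were compared by lists, in the same fits. Over all tested genes, 19.5% fell and 16.4% rose in the labelled knockout with DMSO, and 25.6% rose and 23.9% fell with EPZ-6438. Of 13 tested keratins, the filaments that desmoplakin holds, 10 fell in the labelled knockout with DMSO and 3 rose, with a median log2 fold change of -1.81. KRT14, the basal keratin, went from 1320 ± 10 to 191 ± 6.5 CPM (SD, n = 2; log2 -2.79), with log2 values of -2.18 for KRT6A and -1.81 for KRT17. The 3 that rose were KRT7, KRT8 and KRT18, keratins of simple epithelium, named after their values were seen (log2 1.01, 0.25 and 0.42). KRT19, named in the same way and also a keratin of simple epithelium, fell (log2 -2.4; adjusted p = 0.0039) from 1.1 and 1.34 to 0.155 and 0.290 CPM. KRT14, KRT16 and KRT17, and KRT6A and KRT6B, are close copies, so their counts are uncertain where reads could be shared. With EPZ-6438, 5 keratins rose and 4 fell (median 0.07), among them KRT15, which rose by 0.86 ± 0.05, and KRT5, which fell by 1.14 ± 0.02 (log2, SE).

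Adherens junction genes had no common direction: 6 rose and 5 fell of 13 in the labelled knockout (median 0.10), and 6 rose and 5 fell with EPZ-6438 (median 0.03). The shares over all tested genes were 16.4% rising and 19.5% falling in the labelled knockout, and 25.6% and 23.9% with EPZ-6438. NECTIN1, an adhesion molecule of these junctions, went from 136 ± 0.0063 to 82.5 ± 6.3 CPM (SD, n = 2; log2 -0.73). CTNND1 (p120-catenin, a relative of the plakophilins) fell by 0.23 ± 0.03 and ARVCF rose by 0.74 ± 0.09 (log2, SE). E-cadherin (CDH1) did not pass the test in the labelled knockout (log2 0.01 ± 0.03, SE; adjusted p = 0.78) and fell with EPZ-6438 by 0.50 ± 0.03, while NECTIN4 rose by 1.48 ± 0.11 and N-cadherin (CDH2) fell by 1.38 ± 0.11 (log2, SE).

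Hemidesmosome genes, which fasten basal cells to the matrix below, gave 3 rising and 1 falling of 9 in the labelled knockout (median 0.07) and 6 falling with EPZ-6438 (median -0.23), among them plectin (PLEC) by 0.55 ± 0.03 (log2, SE). In the labelled knockout the laminin chain LAMA3 rose by 0.41 ± 0.04 and the integrin ITGA6 fell by 0.20 ± 0.03 (log2, SE). Of 7 connexins, the channels of gap junctions, 2 fell in the labelled knockout, GJA1 by 1.08 ± 0.08 and GJB6 by 1.7 ± 0.20, and with EPZ-6438 3 rose and 2 fell, GJB2 rising by 0.69 ± 0.04 (log2, SE). Of 4 tested other desmosome and plaque genes, KAZN rose in the labelled knockout (log2 0.50 ± 0.08, SE) and the envoplakin gene EVPL fell with EPZ-6438 (log2 -0.41 ± 0.07, SE). Beside the counts of hemidesmosome, connexin and plaque genes, 16.4% of all tested genes rose and 19.5% fell in the labelled knockout. With EPZ-6438 these shares were 25.6% and 23.9%. Against these lists, the median of -0.59 of the 10 members with DMSO lay between that of the keratins and those of the other junctions. In the untreated pair, 1 library per group, the median log2 difference was -1.45 for the members and -2.35 for the keratins. It was -1.02 for connexins, -0.71 for other desmosome and plaque genes, -0.4 for hemidesmosome and 0.24 for adherens junction genes. There 4 of 9 hemidesmosome genes and 4 of 7 connexins were 2-fold or more lower and 0 higher, beside 10.5% and 6.75% of all genes. The lists were not tested against each other.

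**Figure D5:**
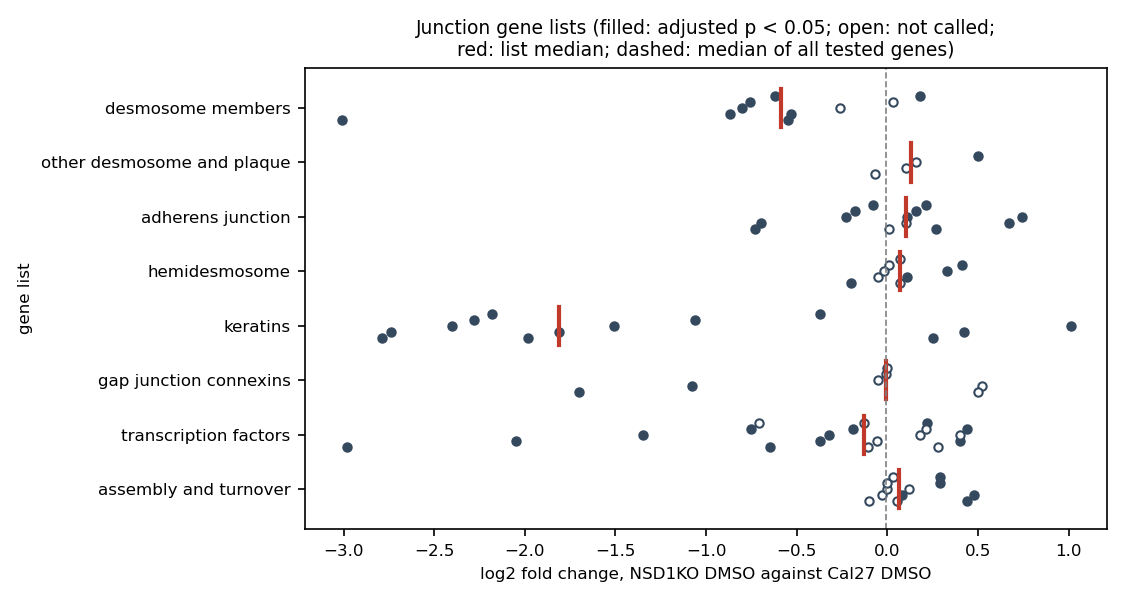
Log2 fold change of each tested gene of 8 lists in the labelled knockout with DMSO against Cal27 with DMSO (points; filled where the gene passed the test), with the list median in red and the median of all tested genes, -0.01, dashed. The medians are -0.59 for the 10 desmosome genes and -1.81 for the keratins, and lie between -0.13 and 0.13 for the other lists.

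Of 19 tested transcription factors of epithelial and junction genes, 8 fell and 3 rose in the labelled knockout (median -0.13) and 9 rose and 2 fell with EPZ-6438 (median 0.19). Beside these counts and those of the assembly list below, 19.5% of all tested genes fell and 16.4% rose in the labelled knockout. With EPZ-6438, 25.6% rose and 23.9% fell. SOX2, a factor of squamous progenitors, went from 14.2 ± 0.26 to 1.80 ± 0.017 CPM and to 7.82 ± 0.055 CPM with EPZ-6438 (SD, n = 2). ELF3 fell by 1.35 ± 0.08 and rose by 1.86 ± 0.07 with EPZ-6438, and KLF5 fell by 0.75 ± 0.04 and rose by 0.55 ± 0.04 (log2, SE). TP63, the master regulator of stratified epithelium, fell in both steps, by 0.37 ± 0.03 in the labelled knockout and by a further 0.35 ± 0.03 with EPZ-6438 (log2, SE). Of 12 genes of desmosome assembly and turnover, 5 rose in the labelled knockout (median 0.06), among them ATP2C1, a Golgi calcium pump, by 0.29 ± 0.03 (log2, SE). With EPZ-6438 1 rose and 3 fell (median -0.05), EGFR by 0.41 ± 0.02 (log2, SE).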

How the data were processed

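RNA was extracted with TRIzol and sequenced after depletion of ribosomal RNA, per the labels' protocols. The authors deposited raw read counts per gene, whole numbers with 1 column per library, used as deposited. Per the submitters' processing notes, the build was hg38, and HISAT2 2.1.0, featureCounts 1.6.1, CASAVA 1.7 and Picard 2.23.1 are named; roles, annotation and strand setting: not given in the sources used here. Reads of a gene and of an antisense neighbour (DSG2-AS1, DSCAS over DSC2, LOC124904345 over DSC3 and DSP-AS1 in RefSeq) may therefore be mixed.

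Samples were grouped by title. The 6 treated libraries entered 1 fit in edgeR 4.0.16 under R 4.3.3: default low-count filter, TMM scaling, quasi-likelihood test without covariates (3 residual degrees of freedom), Benjamini-Hochberg adjustment over 13241 genes, calls at adjusted p below 0.05. The common biological coefficient of variation was 2.6%. Replicates differed by more than sampling noise (chi-square per degree of freedom from 1.75 to 2.19). The fit was first tested on simulated counts. Single libraries were compared by TMM-scaled log2 CPM with a prior count of 2, past a 2-fold difference, with 95% Poisson intervals that cover counting error only.

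The rule for named genes took all 10 members, NSD1, the cadherin cluster, up to 3 genes per list with the lowest adjusted p in the knockout or inhibitor comparison, and the 5 genes most like the members. Members and lists were chosen with earlier results of these data known. Alternatives were other scalings, low-count filters, DESeq2 1.42.0, 2-group fits, a robust spread, a threshold test at a log2 fold of 0.5, a replicate block, left-out replicates and the added untreated pair. The 7 CUT&Tag samples were not analysed here, and some items are not reported here.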

Additional observations from a re-analysis of the deposited data

Results flagged for a closer look

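For 9 of the 10 desmosome genes the change in the labelled knockout was called different between the untreated and the DMSO libraries in an edgeR interaction fit. That fit has 1 library per untreated group and takes its spread from the DMSO pairs alone, so the call assumes that untreated libraries vary as those do, which was not tested. The untreated log2 fold change minus that with DMSO was -5.83 for PKP1, -1.97 for DSP, -1.64 for DSG3, -0.90 for PERP, -0.86 for DSC3, -0.74 for DSC2, -0.66 for JUP, -0.41 for PKP3 and -0.27 for PKP2. Over all 13751 genes tested for it, 2218 were called in the same direction and 2019 in the other. The untreated libraries are deeper and form a set of their own, so treatment and library set cannot be told apart.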

How the results depend on the processing

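Counts of called members kept within 1.5 times their value in most alternatives. In the inhibitor comparison the 3 members called lower became 1 in DESeq2 and 1 with a replicate block. Against a log2 fold of 0.5 the members called higher became 0 in the knockout comparison, 0 in the inhibitor comparison and 0 for the treated knockout against Cal27, and those called lower became 1 in the inhibitor comparison and 3 for the treated knockout against Cal27. With the untreated pair added, 4 members were lower in the knockout comparison. Leaving out 1 library at a time gave 3 to 5 members higher and 1 to 3 lower in the inhibitor comparison, 7 to 8 lower in the knockout comparison, and 0 to 1 higher and 8 to 9 lower for the treated knockout against Cal27. Signs turned only for values that had not passed: PKP2 in the knockout comparison (-0.01 to 0.07 with 1 library left out, the former without replicate 2 of Cal27 with DMSO, and -0.05 with the untreated pair) and DSC2 in the inhibitor comparison (-0.13 to 0.03, the latter without replicate 2 with EPZ-6438). The replicate numbers did not pair the samples (correlations of deviations from -0.04 to 0.01), and the replicate block gave 2054 genes higher and 2458 lower in the knockout comparison and ended 2 member calls, DSG2 and DSG3 with EPZ-6438 (adjusted p = 0.050 and 0.053). Over all genes, a log2 fold of 0.5 left 248 higher and 618 lower in the knockout comparison, 1272 and 204 in the inhibitor comparison and 1053 and 424 for the treated knockout against Cal27, and the untreated pair gave 885 and 1054 in the knockout comparison. Of the recomputed counts over the other lists, 631 stayed within 1.5 times and 55 did not. A fit of protein-coding genes alone, added after the data were seen, called DSC2 lower in the knockout comparison (adjusted p = 0.041). The cause of these changes was not tested. Levels of PKP1 in the untreated labelled knockout are limited by 32 counts.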

Other observations

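The mean profile of the 10 desmosome genes, as log2 CPM centred on each gene, was lowest in the untreated labelled knockout (-1.14), lay between -0.80 and -0.72 in the 4 treated libraries of the labelled knockout, at -0.07 and -0.05 in Cal27 with DMSO, at 0.88 in untreated Cal27, and was highest in SKN3 (1.67) and BICR78 (1.73). The lowest value leaned on PKP1, 8.06-fold lower in the untreated labelled knockout than in that with DMSO. The other members that were lower there were so by at most 1.59-fold, while JUP, PKP3, DSC3 and DSC2 were higher by at most 1.39-fold. The members followed the mean of the other 9 with a Pearson correlation from 0.35 for PKP3 and 0.70 for DSG2 to 0.98 for DSG3, DSP and PERP. Of 10514 other protein-coding genes with a mean of 5 CPM or more, the tetraspanin CD9 had the profile most like the members' mean (r = 0.999 over the 10 libraries), followed by CAPG (0.989), DGKA (0.987), IGFBP6 (0.987) and KRT13 (0.986), the keratin of stratified mucosa. These values describe 10 libraries that share cell lines and sets and are not independent, so no p is given.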
